A study of Mus musculus with 6 samples.

Results

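The proteins of the core spliceosome were followed at the mRNA level in 2 kinds of mouse cells, as 50 measured genes out of 52 listed, represented by 98 of the 45141 probe sets on the array. The list was chosen by gene symbol and holds the proteins of the U1 and U2 snRNPs, the U4/U6.U5 tri-snRNP, the Sm and LSm rings, the Prp19 complex and the DEAH helicases that drive the splicing cycle. A probe set was taken where its single gene symbol was on the list, and Snrnp200 and Ddx23 were not analysed here. The study compared fibroblasts derived from embryonic stem cells that were wild type (WT) with others lacking CD98hc (CD98hc KO), the heavy subunit of several amino acid transporters, which the gene Slc3a2 encodes. Both were grown in complete medium with high glucose, glutamine and β-mercaptoethanol, an additive that CD98hc KO cells need to survive. RNA of each label was hybridised to 3 Affymetrix mouse expression arrays, numbered 1, 3 and 5 under both labels. Whether the 3 arrays of a label came from separate cultures is not given, so the spread behind each p-value is that of these arrays and could be technical alone.

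The spliceosome removes introns in a cycle of assembly and rearrangement. U1 snRNP pairs with the 5′ splice site and U2 snRNP with the branch point, the tri-snRNP then joins, and ATP-driven helicases together with the Prp19 complex turn the assembly into the active enzyme and later take it apart. Each snRNP is a small nuclear RNA bound by a ring of Sm or LSm proteins and by proteins of its own. The machinery is used by every cell type.

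Of the 50 genes, 28 were higher on the KO-labelled arrays, 0 were lower and 22 were not called, at an adjusted p under 0.05 over all 17097 genes. Over all genes, 22.6% were called higher and 19.2% lower. The median log2 fold change (KO-labelled minus WT-labelled) was 0.46 over the members, with a range from −0.39 to 1.31, and 0.018 over all genes, with quartiles of −0.23 and 0.34. The rises were small for this comparison. Only Snrnp70, Xab2 and Dhx16, 3 of the 50 genes, passed a 2-fold limit as well, against 19.4% of all genes. Every gene listed here under the U1 snRNP and the Prp19 complex was called higher, while the Sm ring had 2 of 7. At an unadjusted p under 0.05, 32 members were higher and 2 were lower, against 26.5% and 21.8% of all genes.

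The labels and the values did not match in full. Slc3a2 read 10.64, 10.67 and 10.51 (log2) on the arrays with the WT label and 11.65, 11.57 and 11.54 on those with the KO label. The signal for the gene named as deleted was thus higher under the KO label (log2 fold change 0.98, SE 0.075, adjusted p = 0.00012, limma). Slc3a2 has 1 probe set here, and whether it lies in the deleted part is not given, so it cannot settle the genotype. All 14 pluripotency markers that were measured rose on the KO-labelled arrays, with a median log2 fold change of 6.58, and their summed linear signal was 455 to 589 on WT-labelled and 33008 to 34322 on KO-labelled arrays. On the WT-labelled arrays 12 of these 14, Pou5f1 and Nanog among them, lay within 1.5 log2 units of the nonspecific probe sets' median (4.23). Of 15 measured fibroblast markers, 9 were lower on the KO-labelled arrays, Thy1 was higher (4.52 against 4.89, near the nonspecific median under both labels) and 5 were not called, and their summed signal was 17894 to 28665 on WT-labelled and 1381 to 1858 on KO-labelled arrays. Col1a1 and Col3a1, which encode the main fibrillar collagens, fell by 5.72 and 6.89 on the log2 scale, and Lum and Postn were near that median under both labels. These markers moved with every difference between the labels given here, and their part in the splicing results was not tested. The genotype and the kind of cell cannot be told apart. In such bulk RNA, fewer cells of a type and less RNA per cell cannot be told apart either. For these reasons the arrays are called WT-labelled and KO-labelled below.

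The promoters of the 3 genes that passed the 2-fold limit are shown, with the matches to the ETS-type and NRF1-type letters counted below. They are the 250 bases before the annotated start in RefSeq (GRCm38.p6), written 5′ to 3′ on the strand of the gene. Capitals mark matches, on either strand, to an ETS-type motif, CCGGAAG, or an NRF1-type motif, GCATGCGC. The Snrnp70 stretch lies at chr7:45395743-45395992 (minus strand), that of Xab2 at chr8:3621297-3621546 (minus strand) and that of Dhx16 at chr17:35879528-35879777 (plus strand).
Snrnp70: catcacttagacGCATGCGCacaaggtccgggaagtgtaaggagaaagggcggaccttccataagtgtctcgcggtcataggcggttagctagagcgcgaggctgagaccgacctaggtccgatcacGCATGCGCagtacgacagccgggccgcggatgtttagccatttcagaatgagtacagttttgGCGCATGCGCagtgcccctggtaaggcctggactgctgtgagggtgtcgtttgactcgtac
Xab2: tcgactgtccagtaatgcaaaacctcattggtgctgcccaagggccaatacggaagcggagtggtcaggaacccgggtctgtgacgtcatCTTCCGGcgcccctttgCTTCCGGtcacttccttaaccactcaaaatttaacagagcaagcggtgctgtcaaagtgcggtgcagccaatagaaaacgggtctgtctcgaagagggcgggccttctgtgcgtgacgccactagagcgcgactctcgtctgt
Dhx16: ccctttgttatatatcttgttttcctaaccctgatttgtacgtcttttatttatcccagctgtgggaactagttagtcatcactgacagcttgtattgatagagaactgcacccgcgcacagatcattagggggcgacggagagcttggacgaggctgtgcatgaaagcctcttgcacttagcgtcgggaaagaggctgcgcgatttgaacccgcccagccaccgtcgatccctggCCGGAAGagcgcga
Snrnp70 had 4 NRF1-type matches, of which the last 2 lie on opposite strands and overlap. Xab2 had 2 ETS-type matches on the opposite strand, and Dhx16 had 1, beginning 14 bases before the start. A promoter was matched for 40 of the 50 measured members. The ETS-type letters occurred in 14 of the 40 (35%) and in 10.2% of 17492 protein-coding genes. The NRF1-type letters occurred in 2 members (5%) and 3.32% of genes, the CRE letters TGACGTCA in 5 members (12.5%) and 2.2%, and GGGCGG, the GC box, in 24 members (60%) and 45.8%. CCAAT was found in 16 members (40%) and 39.5% of genes, the E-box CACGTG in 3 (7.5%) and 7.61%, and TATAAA in 2 (5%) and 13.7%. Each of these motifs was searched on both strands, and none contains another. Of the 24 members with a promoter that were called higher, 10 held the ETS-type letters, as did 4 of the 16 that were not called. These are counts of letters and say nothing on binding.

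**Figure D1:**
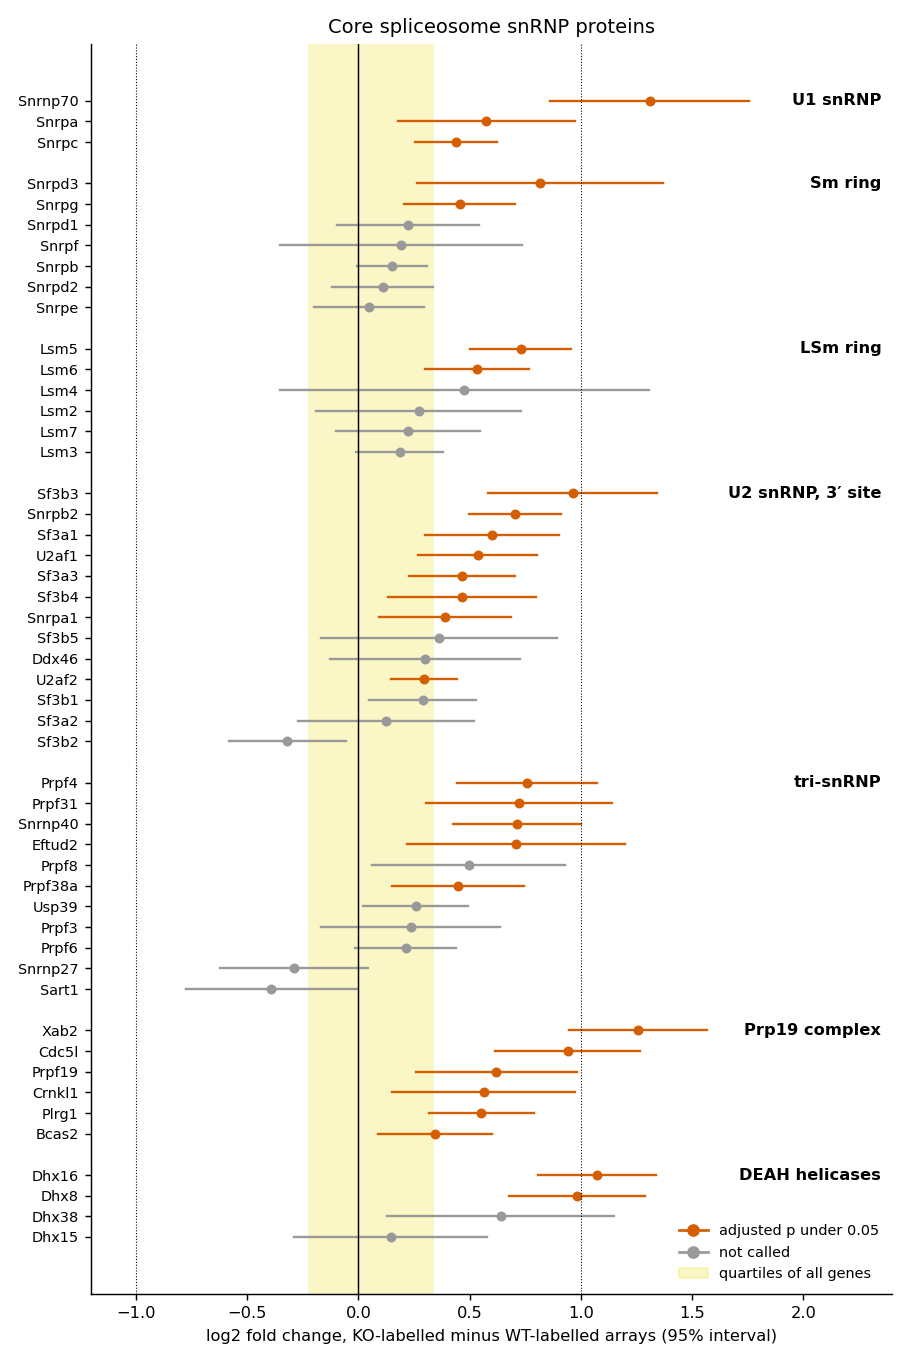
Log2 fold change (KO-labelled minus WT-labelled arrays, 3 arrays each) of the 50 measured core spliceosome genes, grouped by particle, with 95% intervals from limma, the genes called at an adjusted p under 0.05 in orange and the quartiles of all genes shaded. All 28 called genes lie to the right of 0, and 3 of the 50 point estimates lie left of 0.

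U1 snRNP recognises the 5′ splice site first, and the mRNAs of all 3 of its own proteins were higher on the KO-labelled arrays. Snrnp70 encodes the largest of them, which grips the first stem-loop of U1 snRNA and receives SR proteins. Its log2 values were 8.16, 7.80 and 8.09 on WT-labelled and 9.56, 8.94 and 9.48 on KO-labelled arrays, in the order of replicates 1, 3 and 5, as in every such sentence below. The groups were more than a log2 unit apart on average, and the replicate 3 array was the lowest under both labels. The log2 fold change was 1.31 (SE 0.19, adjusted p = 0.0017), a 2.48-fold rise. All 4 Snrnp70 probe sets were called higher, with log2 fold changes from 0.36 to 1.31. The product of Snrpa binds another stem-loop of U1, and its mRNA read 10.34, 10.08 and 10.48 against 11.11, 10.58 and 10.93. The groups were barely apart, and the change of 0.58 (SE 0.17, adjusted p = 0.032) lost its call without the WT replicate 1, WT replicate 3, KO replicate 1 or KO replicate 5 array. The call also went with each array centred on its median. Snrpc, for the zinc finger protein that steadies the pairing of U1 with the splice site, moved from 9.82, 9.93 and 9.79 to 10.28, 10.37 and 10.21. Its change of 0.44 (SE 0.076, adjusted p = 0.0041) was even across the replicates. The other Snrpc probe set, averaging 5.94, had overlapping groups and gave −0.022 (adjusted p = 0.87 over all probe sets).

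The mRNAs of the Sm ring, 7 proteins that encircle U1, U2, U4 and U5 snRNA alike, changed least. The median log2 fold change was 0.19, and 2 of the 7 were called higher, near the share of all genes. Snrpd3, for SmD3, had values of 6.99, 7.51 and 6.97 on WT-labelled and 7.99, 8.34 and 7.60 on KO-labelled arrays, a change of 0.82 (SE 0.23, adjusted p = 0.029). Another of its probe sets, far brighter, read 12.14, 12.02 and 12.16 against 12.27, 12.15 and 12.21, and gave a change of 0.10 that was not called (adjusted p = 0.34 among the brightest probe sets). The third was called higher, at 0.62 (adjusted p = 0.047 over all probe sets). The call of the first also went without the WT replicate 1, WT replicate 5, KO replicate 1 or KO replicate 3 array. Snrpg, for SmG, showed the same split. Its most variable probe set rose by 0.46 (SE 0.10, adjusted p = 0.013) with separate groups, while the brightest gave 0.18 (adjusted p = 0.25).

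The remaining Sm genes were not called with either probe set. Snrpe, for SmE, was the nearest to 0, at 12.22, 11.97 and 12.20 on WT-labelled and 12.20, 12.04 and 12.29 on KO-labelled arrays. Its groups overlapped, and the difference of 0.05 had a 95% interval from −0.20 to 0.29. Snrpd1, Snrpd2, Snrpf and Snrpb had changes of 0.22, 0.11, 0.19 and 0.15. For Snrpb, which encodes the ring's SmB, the KO-labelled arrays were all higher (11.56, 11.52 and 11.56 against 11.44, 11.32 and 11.41), at an adjusted p of 0.11, and its other probe set gave −0.03. Snrpf read 10.60 on the WT replicate 3 array against 11.35 and 11.32 on its partners, and that spread left an interval from −0.35 to 0.74.

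The LSm ring holds the 3′ end of U6 snRNA, and 6 of its subunits, which also serve in a cytoplasmic ring for mRNA decay, are among the members. Of these, 2 were called higher, and the median change was 0.37. Lsm5 had values of 6.77, 6.64 and 6.54 against 7.51, 7.31 and 7.32. The groups were well apart and the change was 0.73 (SE 0.094, adjusted p = 0.0012). Lsm6 was the only one of the 30 members with several probe sets whose probe sets were called in opposite directions. The probe set used here rose from 9.56, 9.55 and 9.35 to 9.91, 10.15 and 10.00 (log2 fold change 0.53, SE 0.097, adjusted p = 0.0051). A second one read 4.70, 4.57 and 4.59 against 4.20, 4.38 and 4.41, close to the nonspecific median, and fell by 0.29 (adjusted p = 0.040 over all probe sets). The brightest gave −0.08 and was not called, so no direction for Lsm6 mRNA holds across its probe sets. Lsm3 had the smallest change of the ring, 0.19 (95% interval −0.01 to 0.38), with the groups just apart at 11.42, 11.33 and 11.29 against 11.51, 11.65 and 11.45. Lsm2, Lsm4 and Lsm7 had 0.27, 0.48 and 0.22. Lsm4 was low on the replicate 3 arrays, at 10.61 (WT) and 11.40 (KO), when the others lay between 11.67 and 12.12. It was called higher (adjusted p = 0.023) in a fit with replicate 3, the hybridisation controls of which stood apart, as a covariate.

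**Figure D2:**
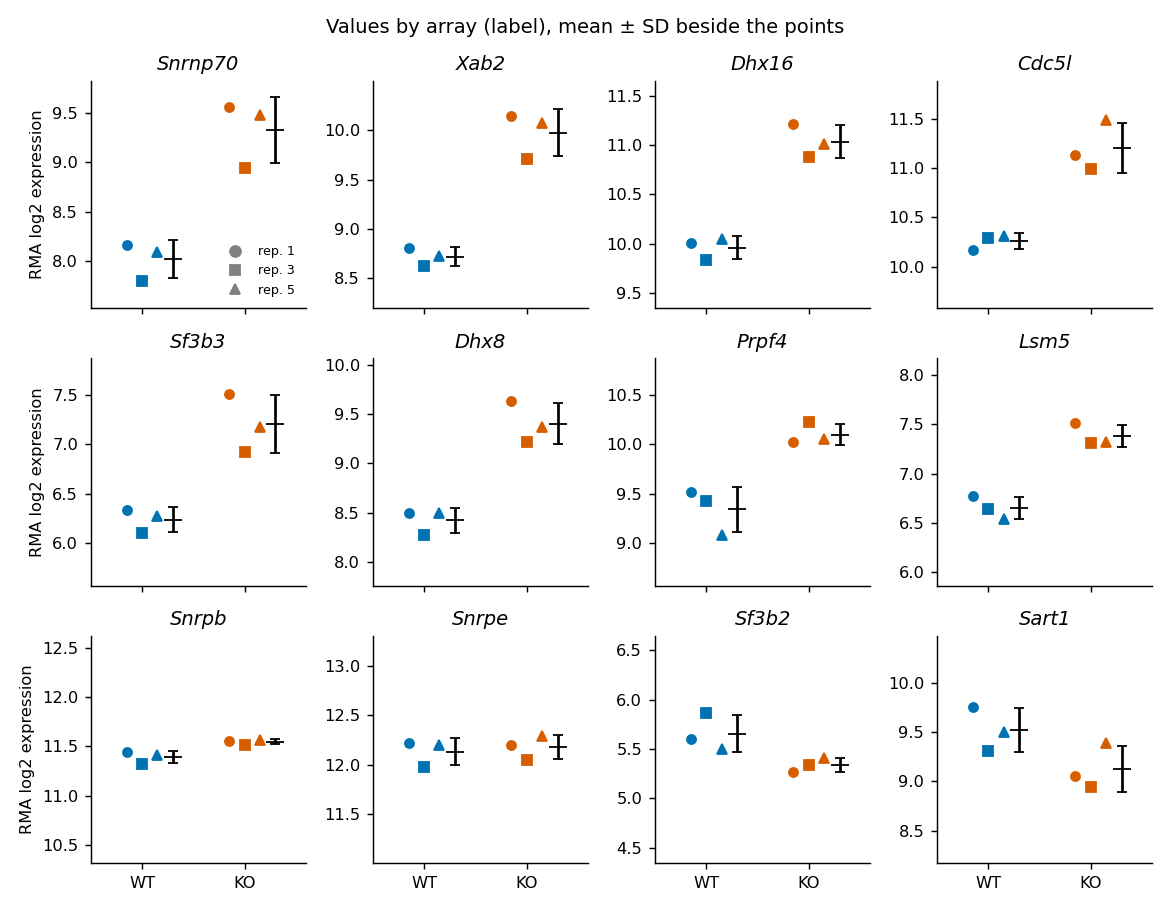
RMA log2 values of 12 members on each of the 6 arrays, by label (WT or KO), with replicates 1, 3 and 5 as circles, squares and triangles and the mean ± SD (n = 3) beside them. The 8 genes of the upper rows have groups that do not overlap, Snrpe overlaps, and Sf3b2 is lower on all 3 KO-labelled arrays without being called. Each panel has its own axis range.

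U2 snRNP and the proteins that read the 3′ splice site gave the largest group, 13 genes, of which 8 were called higher with either choice of probe set. Sf3b3, the scaffold of the SF3b complex that clamps the branch point, read 6.34, 6.10 and 6.28 on WT-labelled and 7.51, 6.92 and 7.18 on KO-labelled arrays. The change was 0.96 (SE 0.16, adjusted p = 0.0032), and its brightest probe set gave 0.69. Snrpb2, the product of which sits on a U2 stem-loop together with that of Snrpa1, rose from 9.68, 9.51 and 9.67 to 10.44, 10.26 and 10.28. That is a change of 0.70 (SE 0.086, adjusted p = 0.00091) with a narrow spread. The dimmest Snrpb2 probe set, averaging 4.7, gave 0.10 and was not called (adjusted p = 0.42 over all probe sets). Snrpa1 rose by 0.39 (adjusted p = 0.043) and lost the call without the WT replicate 3, WT replicate 5, KO replicate 1 or KO replicate 5 array. Sf3a1, of the SF3a complex that joins U2 to the branch region, read 9.01, 9.07 and 8.72 against 9.45, 9.71 and 9.46. This was a change of 0.60 (SE 0.12, adjusted p = 0.0088). The dimmest Sf3a1 probe set, averaging 4.55, gave −0.014 and was not called (adjusted p = 0.92 over all probe sets). U2af1, the subunit of U2AF that reads the AG at the intron's end, read 10.74, 10.45 and 10.76 against 11.24, 11.06 and 11.26, a change of 0.54 (SE 0.11, adjusted p = 0.0088). Its partner U2af2, which binds the polypyrimidine tract, rose by 0.30 (SE 0.062, adjusted p = 0.0093).

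Sf3a3 and Sf3b4, also parts of SF3a and SF3b, each rose by 0.47. Sf3b4 lost its call without the WT replicate 1, WT replicate 5, KO replicate 1 or KO replicate 3 array. Sf3a2 moved least in the group, with 7.98, 7.81 and 8.14 against 8.43, 7.86 and 8.01, so that the groups overlapped (difference 0.13, 95% interval −0.27 to 0.52). Sf3b1, the subunit of SF3b around the branch point adenosine, had a change of 0.29 (adjusted p = 0.058) on a probe set averaging 6.76, and changes of 0.03 and −0.04 on the others, averaging 10.73 and 12.26. Sf3b2 was the lone member of the group with a negative value. Its most variable probe set read 5.60, 5.86 and 5.50 against 5.26, 5.33 and 5.41 (log2 fold change −0.32, adjusted p = 0.057), and its 3 other probe sets, all averaging above 10, lay between −0.15 and −0.04. The last uncalled genes, Sf3b5 and the helicase gene Ddx46, had 0.36 and 0.30 with overlapping groups.

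The tri-snRNP brings U4, U5 and U6 into the spliceosome. Of its 11 measured genes on the member list, 5 were higher on the KO-labelled arrays, with a median change of 0.45. Of the U4/U6 proteins, Prpf4 read 9.52, 9.42 and 9.08 on WT-labelled and 10.02, 10.22 and 10.05 on KO-labelled arrays (log2 fold change 0.76, SE 0.13, adjusted p = 0.0039). Its other probe set, averaging 8.01, had overlapping groups and gave 0.014 (adjusted p = 0.96 over all probe sets). Prpf31, which binds U4 beside Snu13, read 10.16, 9.60 and 9.91 against 10.64, 10.37 and 10.81. Its change was 0.72 (SE 0.17, adjusted p = 0.016), but a second probe set gave −0.21 (adjusted p = 0.59 over all probe sets), and the call went without the KO replicate 1 or KO replicate 5 array. Prpf3, which binds Prpf4 directly, was at 0.24 and overlapped. The mRNAs of the U4/U6 proteins were thus uneven.

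Among the U5 proteins, Snrnp40, a WD-repeat subunit, read 11.02, 10.81 and 11.18 against 11.83, 11.57 and 11.76, a change of 0.71 (SE 0.12, adjusted p = 0.0035), and its second probe set was called higher too. Eftud2, a GTPase, read 9.75, 9.32 and 9.83 against 10.66, 10.01 and 10.35. The groups were separate by less than their spread, and the change of 0.71 (SE 0.20, adjusted p = 0.032) lost its call without the WT replicate 1, WT replicate 3, KO replicate 1 or KO replicate 5 array. Prpf8, which forms the cavity for the catalytic RNA, had all KO-labelled arrays above the WT-labelled ones (11.78, 11.26 and 11.56 against 11.12, 10.74 and 11.25). It missed the threshold (0.50, adjusted p = 0.070), which it passed with replicate 3 as a covariate (adjusted p = 0.0053) and in replicates 1 and 5 alone (adjusted p = 0.039). Prpf6, the bridge between U5 and U4/U6, had the smallest change here, 0.21 (95% interval −0.02 to 0.44), with overlapping groups. Prpf38a, which joins with the tri-snRNP, rose by 0.45 (adjusted p = 0.027) and lost the call without the WT replicate 3, WT replicate 5, KO replicate 3 or KO replicate 5 array.

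Sart1 and Snrnp27, which encode proteins particular to the assembled tri-snRNP, went the other way without a call. Sart1 read 9.75, 9.31 and 9.50 on WT-labelled and 9.05, 8.94 and 9.39 on KO-labelled arrays (log2 fold change −0.39, adjusted p = 0.099), and 1 KO-labelled array lay within the WT-labelled range. Snrnp27 read 7.86, 8.25 and 7.91 against 7.82, 7.81 and 7.52 (−0.29, adjusted p = 0.15). Its brightest probe set had 8.07, 8.19 and 8.20 against 7.95, 7.85 and 7.77, almost the same change with less spread, and was called lower (−0.30, adjusted p = 0.025). Usp39, also of this particle, was at 0.26 (adjusted p = 0.082).

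The Prp19 complex stabilises the catalytic core. All 6 of its genes on the member list were called higher, with a median change of 0.59. The member list does not hold every protein of the complex. Further proteins of the catalytic steps were counted apart, with the genes beyond the core, and these include Cwc15 and Ctnnbl1 of the complex. Cwc15 was not called (0.10, adjusted p = 0.31) and its groups overlapped, while Ctnnbl1 was higher (1.09, adjusted p = 0.00073). Xab2, the human counterpart of which is also known from transcription-coupled repair, read 8.81, 8.63 and 8.72 on WT-labelled and 10.14, 9.71 and 10.08 on KO-labelled arrays. This was a 2.39-fold rise (log2 fold change 1.26, SE 0.13, adjusted p = 0.00043), and its 3 probe sets gave 1.14 to 1.26, all called. Cdc5l, the Myb-like protein at the centre of the complex, read 10.17, 10.29 and 10.31 against 11.13, 10.98 and 11.48, a change of 0.94 (SE 0.14, adjusted p = 0.0018), and its other probe set was called too. Plrg1, its WD-repeat partner, rose by 0.55 (SE 0.097, adjusted p = 0.0043).

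Prpf19, the ubiquitin ligase that names the complex, depended on the probe set. The most variable one read 5.81, 5.71 and 5.77 against 6.14, 6.72 and 6.30 (log2 fold change 0.62, SE 0.15, adjusted p = 0.016), a call that also went without the WT replicate 3 array. Of the 3 others, none was called, and those averaging 10.98 and 10.95 gave −0.0019 and 0.0045. On the brightest, the values were 11.18, 10.88 and 10.88 against 10.94, 10.87 and 11.13, with overlapping groups. Crnkl1, a scaffold of tetratricopeptide-like repeats, read 9.58, 9.48 and 9.06 against 9.71, 10.14 and 9.95 (0.56, SE 0.17, adjusted p = 0.038). Its other probe set, averaging 6.80, gave 0.35 and was not called (adjusted p = 0.20 over all probe sets). Bcas2 had the smallest change of the 6 listed genes of the complex, from 10.02, 9.96 and 9.76 to 10.10, 10.37 and 10.29 (0.34, SE 0.11, adjusted p = 0.040). Both Bcas2 probe sets carry a suffix for possible cross-hybridisation. The calls of Crnkl1 and Bcas2 were narrow. Crnkl1 lost its call without the WT replicate 3, WT replicate 5, KO replicate 3 or KO replicate 5 array. Of the 6 fits without 1 array Bcas2 kept its call only in the one without the KO replicate 1 array. Bcas2 also lost it with a replicate block, in replicates 1 and 5 alone, with median centring, bright probe sets only or an intensity trend.

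The DEAH helicases drive single steps of the cycle, and 2 of the 4 measured were higher. Dhx16, the counterpart of yeast Prp2 that starts the catalytic phase, read 10.01, 9.83 and 10.05 on WT-labelled and 11.21, 10.88 and 11.01 on KO-labelled arrays. The change of 1.07 (SE 0.11, adjusted p = 0.00042) corresponds to 2.1-fold. Dhx8, the counterpart of Prp22 that releases the spliced mRNA, read 8.49, 8.28 and 8.50 against 9.63, 9.21 and 9.37 (0.98, SE 0.13, adjusted p = 0.0012). The groups of both genes were far apart. Dhx38, the counterpart of Prp16 that acts between the catalytic steps, read 9.58, 9.10 and 9.53 against 10.36, 9.66 and 10.11, with the groups just apart, and was not called (0.64, adjusted p = 0.052). It was called higher with replicate 3 as a covariate (adjusted p = 0.0023) and in replicates 1 and 5 alone (adjusted p = 0.015). Dhx15, the counterpart of Prp43 that takes the spent spliceosome apart, had overlapping groups at 10.82, 11.04 and 10.52 against 10.75, 11.23 and 10.83, and a difference of 0.15 (95% interval −0.29 to 0.58).

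**Figure D3:**
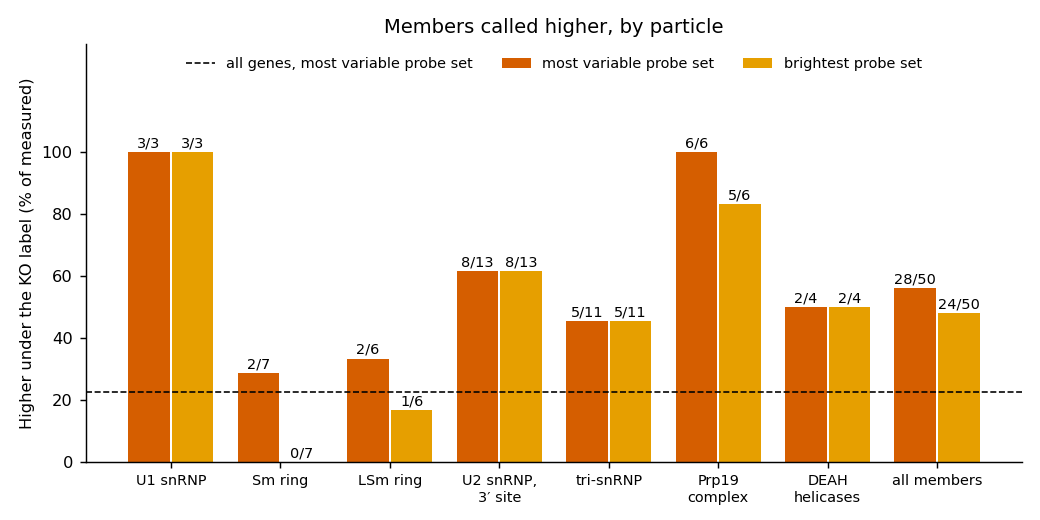
Share of measured members called higher on the KO-labelled arrays (adjusted p under 0.05), by particle, with each gene represented by its most variable or by its brightest probe set, the number of genes above each bar and the share of all genes (22.6%) as a dashed line. U1 snRNP has 3 of 3 with either choice, and the Sm ring has 2 of 7 or 0 of 7.

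With the brightest probe set 4 of the 28 called genes lost their call, most of them in the rings. When each gene was read from its brightest probe set, 24 members were higher, all among the 28, and 1 was lower (Snrnp27), and the median change was 0.36. With that choice 21.3% of all genes were higher and 18.2% lower, and 3 members passed 2-fold as well, against 17.1% of all genes. The 4 genes whose call was lost were Snrpd3, Snrpg, Lsm6 and Prpf19. For 35 of the 50 members both choices gave the same probe set. These include 19 of the 28 called genes, for which the choice could change little. Counted by probe set, 43 of the 98 were higher and 2 were lower, against 16.8% and 15.9% of all probe sets. Of the 30 members with several probe sets, 8 had every one called higher: these include Snrnp70, Sf3b3, Cdc5l and Xab2. The matching share over all genes was not counted, so this count cannot be set against the series. Differences between the particles were not tested.

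**Figure D4:**
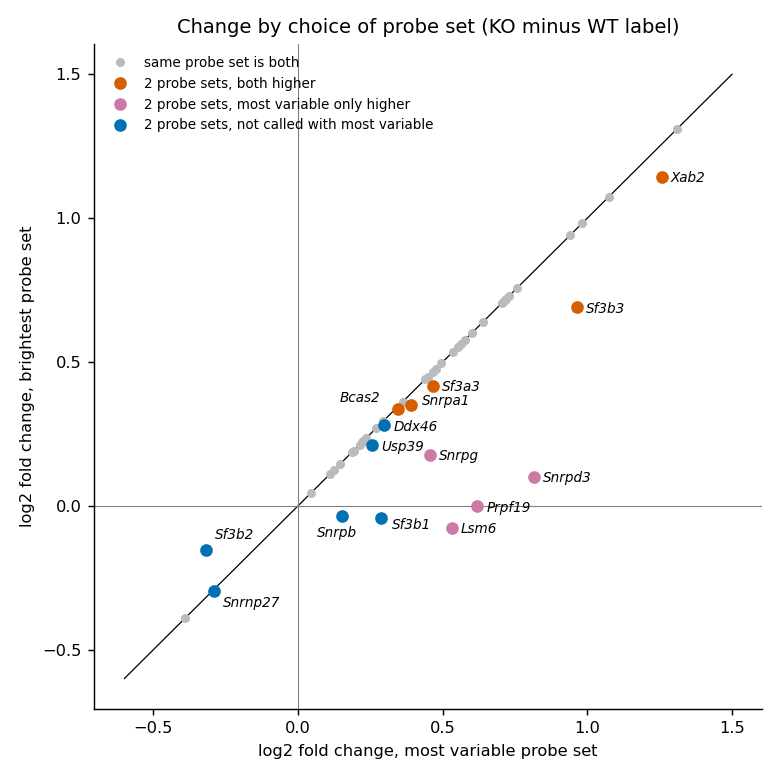
Log2 fold change (KO-labelled minus WT-labelled arrays) of the 50 members read from the most variable probe set (x axis) and from the brightest probe set (y axis), with the line of equality. Grey points are genes for which both are the same probe set, and Snrpd3, Snrpg, Lsm6 and Prpf19 (pink) fall to between −0.08 and 0.18 on the y axis.

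The shift was present at each replicate number. The median difference over the members was 0.36, 0.48 and 0.48 for replicates 1, 3 and 5, with 43, 47 and 46 of the 50 members above 0. Over all genes these medians were 0.018, 0.023 and 0.022, and 53.3% of genes had a log2 fold change above 0 in the main fit. The medians of the members on the single arrays were 9.73 to 9.91 under the WT label and 10.24 to 10.35 under the KO label, and those of all probe sets 5.62 to 5.64 and 5.69 to 5.71. The groups did not overlap for 34 members that were higher on all KO-labelled arrays, against 28.1% of all genes, and for 2 that were lower (23.4% of all genes), Sf3b2 and Snrnp27. The replicate 3 arrays stood apart by hybridisation: their 9 hybridisation control probe sets were on average 1.16 lower on the log2 scale than those of replicates 1 and 5. The labels name no such batch, and the grouping rests on these control values. With replicate 3 as a covariate, 34 members were higher and 2 lower (25.8% and 21.5% of all genes). Those that gained the call were Lsm2, Lsm4, Sf3b5, Prpf6, Prpf8 and Dhx38, all higher, and Sf3b2 and Sart1, both lower. In the 4 arrays of replicates 1 and 5 alone, 24 were higher and 0 lower (18.7% and 16.6%), and Sf3b3, Cdc5l and Dhx8 also passed 2-fold, which made 6 members against 19% of all genes. With only the brighter probe sets in the fit, 29 members were higher and 0 lower, against 29.4% and 28% of 10431 genes, and 3 passed 2-fold, against 28.3%. In replicate 3 there is 1 array per label and so no test. The difference between 3′ and 5′ probe sets of Gapdh, a sign of RNA quality, was −0.14 to −0.087 under the WT label and −0.13 to −0.068 under the KO label, and that of Actb was −0.29 to −0.085 and −0.38 to −0.27.

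Beyond the core, 88 further genes of the spliceosome and of snRNP assembly were measured, of which 39 were higher, 11 lower and 38 not called, with a median change of 0.32, when 22.6% of all genes were higher and 19.2% lower. With the brightest probe sets 30 were higher and 5 lower. Among genes for proteins that accompany U1, 3 of 5 were higher. These include Luc7l at 0.80 (adjusted p = 0.0031) and Prpf40b at 0.58 (adjusted p = 0.0058). Of 13 others around U2, 4 were higher, led by U2surp (0.91, adjusted p = 0.00025, and 0.30 on its brightest probe set, adjusted p = 0.037), and Dnajc8 was not called on its brightest probe set (adjusted p = 0.21). In the same list Ddx42 was lower (−0.55, adjusted p = 0.0039). Of 11 further tri-snRNP genes, 6 were higher, among them the cyclophilin Ppih (0.98, adjusted p = 0.0027), and 2 were lower. One of these, Txnl4a, a small U5 protein, was at −0.52 (adjusted p = 0.042) and at 0.45 on its brightest probe set (adjusted p = 0.018), so its direction turned with the choice. Lsm8, the subunit that makes the LSm ring nuclear, fell by 1.49 on the log2 scale (5.81, 5.07 and 5.83 against 4.12, 3.85 and 4.26, adjusted p = 0.0024), but its KO-labelled values are at the nonspecific median and its brightest probe set gave −0.24 (adjusted p = 0.18). Of 22 genes of the catalytic steps, 9 were higher and 2 lower. The lower ones were Wbp4 at −0.46 and Zfp830 at −0.65, the latter at 0.19 and uncalled on its brightest probe set. The largest changes were those of Ctnnbl1, which binds Cdc5l (1.09, adjusted p = 0.00073), and the helicase Aqr (1.08, adjusted p = 0.0021).

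The exon junction complex and its partners, 6 genes, had 2 higher (Rbm8a and Rnps1) and 2 lower (Casc3 and Sap18). Rbm8a, its Y14 subunit, was at 1.40 (adjusted p = 0.00034) on the most variable probe set and at −0.02 on the brightest, and Sap18 at −0.68 (adjusted p = 0.0092) and −0.02. Neither call held, nor did that of Rnps1 (0.51, and 0.22 with adjusted p = 0.12 on its brightest probe set), so 0 genes of the list were higher with that choice. Casc3, another core subunit, was at −0.35 (adjusted p = 0.020) and had the same probe set in both choices. In the minor spliceosome, which removes the rare U12-type introns, 4 of 9 genes were higher and 3 lower, these being Snrnp35, Zcrb1 (−0.90, adjusted p = 0.00037) and Rnpc3 (−0.32, adjusted p = 0.041, and −0.20 with adjusted p = 0.099 on its brightest probe set). Pdcd7 rose from 6.79, 6.49 and 6.28 to 7.36, 7.64 and 7.63 (1.02, adjusted p = 0.0021), and Snrnp35, a U11 protein related to Snrnp70, fell from 9.34, 8.81 and 8.79 to 7.71, 7.76 and 8.21 (−1.08, adjusted p = 0.0053). The mRNAs of these 2 proteins of the same U11/U12 particle thus moved apart. In snRNP assembly and recycling, 10 of 21 genes were higher and 1 lower, Lsm11 of the U7 snRNP (−0.47, adjusted p = 0.021), which was at 0.02 on its brightest probe set. Coil, for coilin of the Cajal body where snRNPs mature, read 6.48, 6.39 and 6.26 against 7.88, 7.47 and 7.57 (1.26, adjusted p = 0.00035). Wdr77, the partner of the methyltransferase Prmt5 that modifies Sm proteins, was at 1.22 (adjusted p = 0.0073), and at 0.58 on its brightest probe set.

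Snrpn, which encodes SmN, an imprinted close relative of SmB, changed far more than any ring subunit. Its log2 values were 7.67, 7.15 and 7.52 on WT-labelled and 11.67, 11.22 and 11.32 on KO-labelled arrays. The groups were nearly 4 log2 units apart, a 15.5-fold difference (log2 fold change 3.96, SE 0.17, adjusted p = 1.4e-05). This probe set carries a suffix for possible cross-hybridisation, and its sequence relative Snrpb could share signal. The other Snrpn probe sets, which carry no such suffix, gave 3.81 and 1.17, with every KO-labelled array above every WT-labelled one, while Snrpb was at 0.15 and −0.03.

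**Figure D5:**
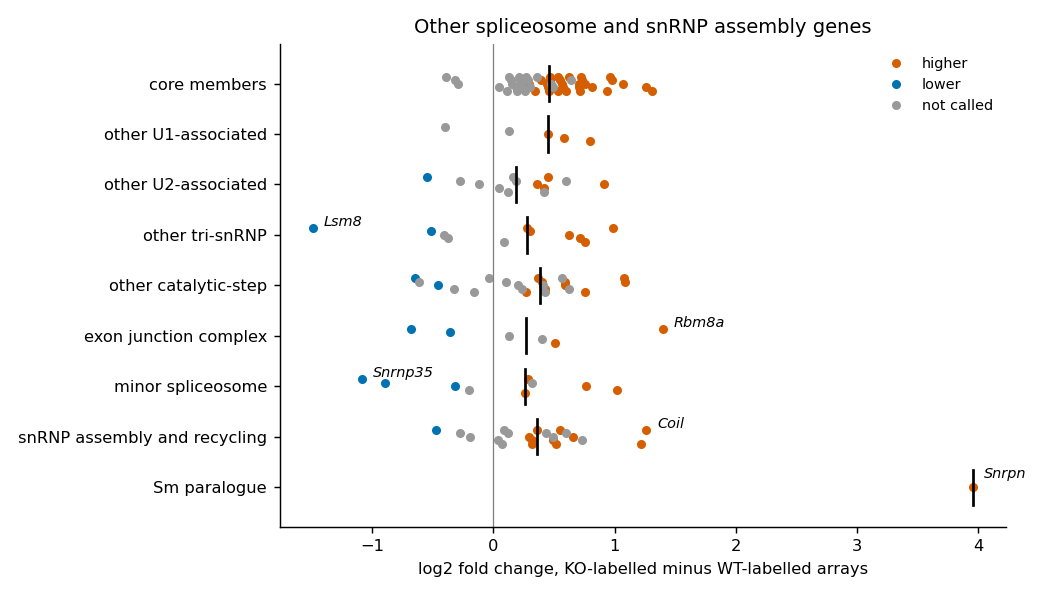
Log2 fold change (KO-labelled minus WT-labelled arrays, most variable probe set) of the 50 core members and of 88 further spliceosome and snRNP assembly genes by list, coloured by call at an adjusted p under 0.05, with the median of each list as a vertical bar. The core members have a median of 0.46 and none called lower, and Snrpn stands alone at 3.96.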

How the data were processed

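Total RNA of fibroblasts derived from embryonic stem cells, labelled WT or CD98hc KO, was amplified and hybridised to 6 Affymetrix mouse genome expression arrays, 3 per label. The values used are the deposited log2 values of each probe set. The authors obtained them with RMA (background correction, normalisation between arrays and summary of probes). No version was given in the labels. The study's model has the scan batch as a covariate. It was left out, since the sources used here do not give it per array. Arrays were grouped by the genotype in their labels.

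Of 45141 probe sets (104 controls), 28898 had 1 gene symbol in the platform annotation, 551 had several and 15692 were unnamed here. Of those with 1 symbol, 28689 matched a RefSeq gene identifier (GRCm38.p6). The most variable probe set stood for each gene (largest SD over the 6 arrays). The study gives this rule for ranking genes in its gene set enrichment analysis, and here it was used for every call. An SD over both labels leans towards probe sets that differ between them. The member median was 0.46 with this rule and 0.36 with the brightest probe set. The difference KO-labelled minus WT-labelled was fitted for all 17097 genes in limma 3.58.1 under R 4.3.3 (functions lmFit and eBayes), with Benjamini-Hochberg adjustment over all genes. A call needed an adjusted p under 0.05. Where stated, a change over 2-fold was also required. The calculation was tested on simulated data. The number of arrays limits the precision, and an exact permutation test of 3 arrays against 3 could not go below p = 0.1.

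The members and all gene lists were chosen with earlier results of these data known. Genes named by rule were, per particle, up to 4 called members with the largest change, the member with the smallest change, members called lower, and members whose call depended on the probe set, and in each wider list up to 2 called genes with the largest change and any called lower by over 2-fold. The other members, and the wider genes called lower by less than 2-fold, were named after their values were seen, to account for all. Promoter letters were searched on both strands of the 250 bases before the start. For genes with several annotated starts, a match in any counted, which applied to 7 members. As alternatives the fit was repeated with a replicate block, with replicate 3 as a covariate, with another choice or the mean of probe sets, without the suffixes for cross-hybridisation, after further normalisation, without dim probe sets, with other variance models and without each array. Python 3.11.15 and matplotlib 3.10.9 drew the figures.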

Additional observations from a re-analysis of the deposited data

How the results depend on the processing

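Over 17 alternatives 15 of the 28 called members kept their call in every one: Snrnp70, Snrpc, Lsm5, Snrpb2, Sf3a1, Sf3b3, U2af1, U2af2, Prpf4, Snrnp40, Cdc5l, Plrg1, Xab2, Dhx8 and Dhx16. Centring each array on its median took the call from Snrpa, Snrpa1, Sf3b4, Prpf38a, Eftud2, Bcas2 and Crnkl1. In replicates 1 and 5 alone Snrpa1, Sf3a3, Sf3b4, Prpf38a, Bcas2 and Crnkl1 lost it. The number called higher was 21 with each array centred on its median (19.4% of all genes in that fit), 25 with the mean of probe sets (22.1%), 27 of 47 without the cross-hybridising probe sets (22.4%), 28 with robust variance (22.3%), and 29 with quantile normalisation (22.7%), with an intensity trend (23%) or with bright probe sets only (29.4%). Against 0 members lower, 2 were lower with replicate 3 as a covariate (Sf3b2 and Sart1), 1 with the brightest probe set (Snrnp27), and 1 with quantile normalisation or with median centring (Sf3b2). The 3 members past 2-fold became 6 in the arrays of replicates 1 and 5, 4 with quantile normalisation, 2 with median centring (Dhx16 left, at 0.997) and 2 with the mean of probe sets (Snrnp70 left, at 0.63). The median log2 fold change of the members was 0.36 with the brightest probe set and 0.32 with the mean of probe sets.

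Leaving out 1 array at a time gave 21 to 25 members higher, 0 to 1 lower, 2 to 6 past 2-fold and a median of 0.42 to 0.51. In those fits 19.1% to 21.3% of all genes were higher, 16.7% to 18.1% lower and 18.7% to 19.9% past 2-fold. The count past 2-fold was 6 without KO replicate 3, 5 without WT replicate 1 or KO replicate 5, and 2 without KO replicate 1. The 1 lower appeared without WT replicate 5 and without KO replicate 5.

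Replicate numbers are shared by the labels, but same-numbered arrays did not all deviate together from their label's mean (correlations of 0.059, 0.56 and 0.15 for replicates 1, 3 and 5), so the numbers were not taken as pairs. The replicate 3 arrays did deviate together and share the low hybridisation controls, while replicates 1 and 5 did not correlate best with their own number. With the replicate number as a block, 33 members were higher (25% of all genes), 26 of them among the 28, 0 were lower and 3 passed 2-fold, at a median of 0.46. Prpf38a and Bcas2 lost their call in that fit.

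With the brightest probe set the sign turned for Lsm6 (-0.076), Prpf19 (-0.0019), Snrpb (-0.034), Sf3b1 (-0.042), Rbm8a (-0.021), Txnl4a (0.45), Zfp830 (0.19) and Lsm11 (0.015). Uncalled genes near 0 turned as well: Snrpe with median centring (-0.030), without WT replicate 3 (-0.032) and without KO replicate 5 (-0.010), Snrpf without WT replicate 3 (-0.054), Sf3a2 without KO replicate 1 (-0.038), and Dhx15 without KO replicate 3 (-0.0020). Leaving out 1 array at a time gave ranges of -0.032 to 0.113 for Snrpe, -0.054 to 0.323 for Snrpf, -0.038 to 0.245 for Sf3a2 and -0.0020 to 0.272 for Dhx15. The causes were not tested. Over 75 genes (all measured members, Slc3a2 and the wider genes named) and these alternatives, 1127 values kept direction and side of the threshold, 100 lost the call, 31 gained it, all of members, and 14 turned in sign. Dhx38 and Prpf8 gained it most often.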
